A study of Homo sapiens with 12 samples.

Results

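The data described here are the 6 libraries of VDR knockout HaCaT cells, chosen by their labels out of 12 libraries in the series: 3 from untreated cells and 3 from cells given 1,25(OH)2D3, the hormone that vitamin D is converted to, for 8 h. HaCaT is an immortalised line of human keratinocytes, the epithelial cells of the epidermis. Both groups carry the genotype VDR KO, the same culture medium with fetal bovine serum was used, and the only labelled difference is the hormone. The other 6 libraries, of wild type cells with and without the hormone, entered the model for its estimate of spread and are not compared. The labels state neither the hormone's dose nor a vehicle, and neither the edit made in VDR nor how many clones were used. Per the labels' protocols the 3 replicates were grown on a 6-well plate, so p-values measure the spread between such wells.

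1,25(OH)2D3 acts mainly through VDR, a nuclear receptor that pairs with a retinoid X receptor on DNA, and in keratinocytes this receptor takes part in growth arrest and differentiation. CYP24A1, the hydroxylase that breaks the hormone down, is the classic gene that the liganded receptor switches on. The knockout cells therefore ask which transcripts differ after the hormone is added to cells labelled as lacking its receptor. Keratins are the filament proteins of epithelial cells, with KRT5, KRT14 and KRT15 typical of the basal layer and KRT6A of activated cells, and the ID proteins hold back differentiation by pairing with basic helix-loop-helix factors.

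Total counts were 12610245 to 15992792 in the untreated and 11830811 to 12774091 in the treated libraries. Levels below are CPM, counts per 1e6 counts of a library after scaling for composition, and changes are log2 fold changes of treated against untreated cells ± SE with Benjamini-Hochberg adjusted p from edgeR's quasi-likelihood test. Over the 6 libraries alone, the first principal component held 35.4% of the variance and placed the untreated libraries at -21.7 to -13.8 and the treated at 11.02 to 22.6. All 12 keratinocyte markers listed were among the genes tested, at means of 0.392 to 412.9 CPM. Of 23 markers of fibroblasts, melanocytes, endothelium, immune cells and other tissues (EPO and ALB), 8 had a row in the count table. Of these, 7 were tested and 0 passed the test. Their summed level was 20.3 to 21.0 CPM in untreated and 16.5 to 19.5 CPM in treated libraries, and its part in the results was not tested. A bulk library cannot tell fewer cells of a kind from less RNA per cell.

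Of 14676 genes tested, 134 (0.913%) rose and 240 (1.64%) fell at an adjusted p below 0.05, or 374 (2.55%) in all. The changes were small: 117 of the 134 and 190 of the 240 were below 1.5-fold, and 7 and 4 reached 2-fold. The median log2 fold change was 0.38 among the genes that rose, -0.45 among those that fell and -0.0045 over all genes tested. The 3 treated libraries lay wholly above the 3 untreated ones for all 134 genes that rose, and wholly below for 239 of the 240 that fell, where 15.7% and 15.9% of all genes tested were separated in those directions. Scaled by library size alone, 98 genes (0.668%) rose and 392 (2.67%) fell. In a fit of the 6 knockout libraries alone, 833 rose (5.79%) and 942 fell (6.55%), among them 130 of the 134 and all 240.

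**Figure D1:**
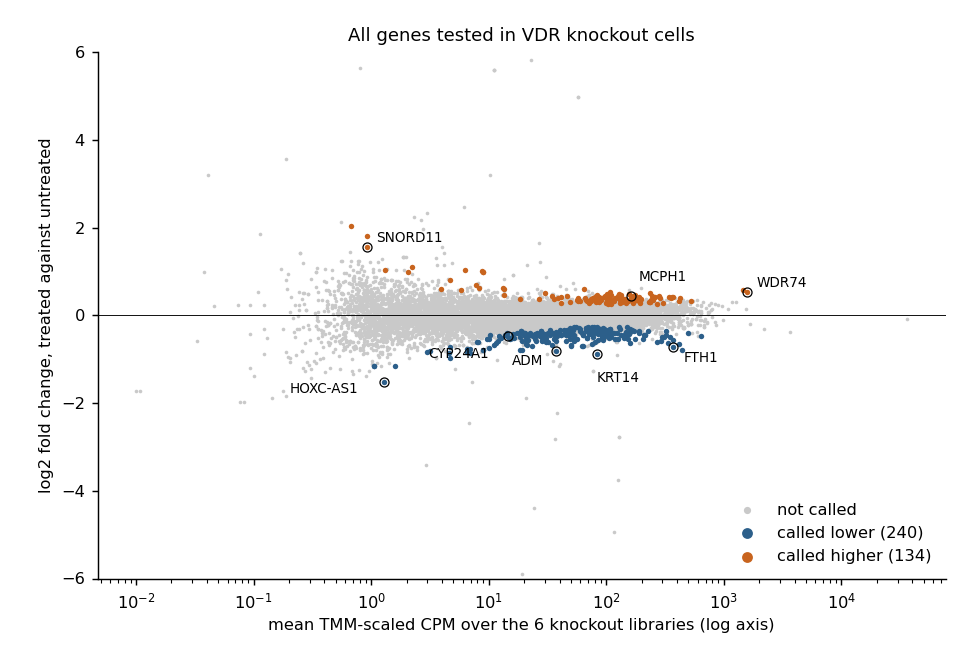
Mean level over the 6 knockout libraries in TMM-scaled CPM (log axis) against log2 fold change of treated over untreated cells, 1 point per gene tested, with the 134 genes called higher in orange and the 240 called lower in blue. Most called genes lie close to 0 on the vertical axis, between -1 and 1, and 7 uncalled genes beyond ±6 are not drawn.

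The number of calls depended on single libraries. Without untreated replicate 1, 2 or 3, in that order, 0, 66 and 59 genes rose and 14, 212 and 78 fell. Without treated replicate 1, 2 or 3, 29, 1 and 13 rose and 65, 8 and 50 fell. Beside the count of 0 in edgeR, 2074 genes in both directions together had an unadjusted p below 0.05. In the 6 fits that each left out 1 library, 8 of the 240 genes that fell (KRT14, ADM, C6orf141, HOTAIRM1, ID1, TUBG2, FTH1 and KRT6A) passed every time (0.0545% of genes tested), and 0 of the 134 that rose passed in 5 or 6 of them. At the other end, 67 of the 134 and 75 of the 240 passed in 0 of these fits.

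**Figure D2:**
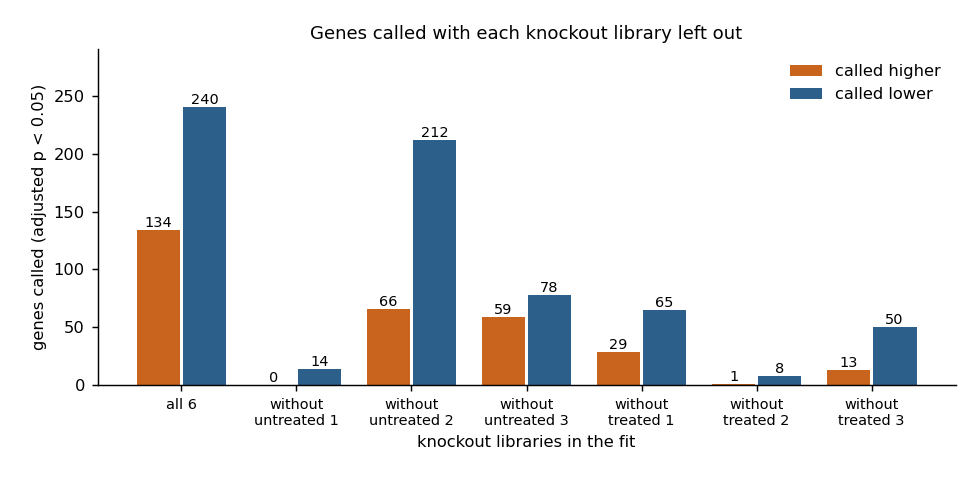
Bars count the genes called higher (orange) and lower (blue) at an adjusted p below 0.05 with all 6 knockout libraries and with each left out in turn. The counts fall from 134 and 240 to 0 and 14 without untreated replicate 1, and to 1 and 8 without treated replicate 2.

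KRT14 encodes the main keratin of basal keratinocytes and lies on chromosome 17 (41582279 to 41586921, GRCh38). It was counted at 107, 104 and 111 CPM in untreated replicates 1 to 3, against 57.2, 61.1 and 57.3 CPM in treated ones. Each treated library was far below each untreated one, and KRT14 was 1.83-fold lower (-0.87 ± 0.10, adjusted p = 0.00169). ADM, on chromosome 11 (10304680 to 10307397), encodes the secreted vasodilator peptide adrenomedullin, a known hypoxia target. It stood at 44.5, 51.8 and 45.2 CPM untreated and at 30.1, 22.7 and 27.8 CPM treated. The groups did not overlap, although treated replicate 2 was lower than the other two, and the change was -0.81 ± 0.10 (adjusted p = 0.00169).

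ID1, on chromosome 20 (31605283 to 31606515), is a standard target of BMP signalling. Its levels of 361, 314 and 314 CPM fell to 239, 197 and 207 CPM, a change of -0.62 ± 0.08 (adjusted p = 0.00257). KRT6A, on chromosome 12 (52487174 to 52493257), fell from 43.3, 41.3 and 43.6 CPM to 26.7, 26.5 and 26.7 CPM. In both genes the highest treated library stayed well below the lowest untreated one. The change in KRT6A was -0.68 ± 0.10 (adjusted p = 0.00424), with the limit that KRT6B and KRT6C are near-identical copies, so its reads could be split among them.

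FTH1, the iron-storing ferritin heavy chain on chromosome 11 (61959718 to 61967660), had 521, 390 and 458 CPM untreated and 299, 269 and 258 CPM treated. Its untreated libraries spread widely but did not reach down to the treated ones (-0.73 ± 0.10, adjusted p = 0.00307), and its many processed pseudogenes make the assignment of its reads uncertain. HOTAIRM1, a long noncoding RNA of the HOXA cluster on chromosome 7 (27095647 to 27100265), went from 118, 106 and 115 CPM to 79.9, 69.6 and 78.5 CPM (-0.57 ± 0.07). The open reading frame gene C6orf141 on chromosome 6 (49550646 to 49561907) went from 100, 82.7 and 91.8 CPM to 60.9, 58.4 and 56.6 CPM (-0.64 ± 0.08). For HOTAIRM1 and C6orf141 alike, all treated values were below all untreated values. TUBG2, a gamma-tubulin of microtubule nucleation on chromosome 17 (42659305 to 42667006), was lower as well, at 132, 115 and 127 CPM against 90.2, 90.6 and 81.3 CPM (-0.52 ± 0.07, adjusted p = 0.00271).

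**Figure D3:**
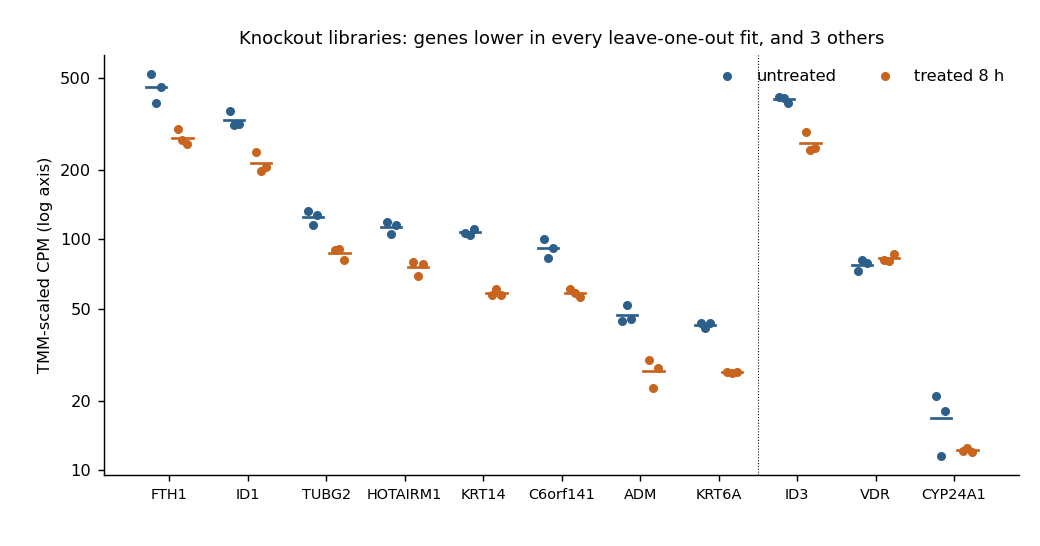
TMM-scaled CPM (log axis) in each untreated (blue) and treated (orange) knockout library, with the group mean as a bar. The 8 genes left of the dotted line passed in every leave-one-out fit with all treated points below all untreated ones. ID3, VDR and CYP24A1 stand to the right, where the groups of VDR and of CYP24A1 overlap.

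The receptor's own pathway was next examined. VDR RNA was still counted, at 73.1, 81.1 and 78.7 CPM untreated and 81.7, 80.5 and 86.3 CPM treated. These groups overlapped, the change was 0.09 ± 0.07 (95% interval -0.05 to 0.24, adjusted p = 0.452), and RNA counts do not measure the protein. CYP24A1 stood at 21.01, 11.6 and 18.01 CPM untreated and at 12.13, 12.48 and 12.04 CPM treated. Untreated replicate 2 lay below all treated libraries, so the groups overlapped, and the change of -0.47 ± 0.15 (95% interval -0.80 to -0.14) did not pass (adjusted p = 0.106). It passed without untreated replicate 2 (-0.67, adjusted p = 0.00484) and in DESeq2 (-0.47, adjusted p = 0.0307), and in 5 of the 6 leave-one-out fits it did not. CYP27B1, the hydroxylase that makes the hormone, changed by -0.06 ± 0.18 (95% interval -0.43 to 0.32, adjusted p = 0.885).

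Of 23 classic vitamin D targets tested, 0 rose and 1 fell (4.35%, against 1.64% of all genes). Their median was -0.19 against -0.0045 over all genes. The member that fell was CDKN1A, the cell cycle inhibitor p21, from 112, 81.7 and 97.3 CPM to 69.1, 61.8 and 59.8 CPM (-0.61 ± 0.10, adjusted p = 0.00759). Its treated libraries lay below every untreated one. TRPV6, an epithelial calcium channel, had -0.97 ± 0.26 and missed the threshold (adjusted p = 0.0551). Of 14 genes for the receptor, its metabolism and its cofactors and 13 for retinoid metabolism and receptors, 0 passed the test in edgeR, with medians of 0.05 and -0.06. The members nearest to the threshold were MED1, a Mediator subunit that binds nuclear receptors (0.42, adjusted p = 0.0957), and the retinoic acid receptor gene RARB (0.55, adjusted p = 0.211).

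All 4 ID genes fell, and they were the 4 of 22 tested members of the BMP and TGF-beta list that passed. This share is 18.2%, against 1.64% of all genes that fell. The list's median was -0.10, and 0 rose. ID3 stood at 412, 407 and 390 CPM untreated and 291, 244 and 250 CPM treated (-0.62 ± 0.09, adjusted p = 0.00576). ID4 went from 31.4, 30.1 and 29.6 CPM to 20.5, 18.2 and 21.8 CPM (-0.59 ± 0.10, adjusted p = 0.00815). ID2 was nearest to overlap, with 28.9, 22.6 and 22.3 CPM untreated and 18.4, 14.9 and 16.4 CPM treated (-0.57 ± 0.12, adjusted p = 0.0227). The size of the change was thus close to -0.6 in each ID gene, and leaving out single libraries kept 1 to 4 of them past the threshold. With the trend on gene span taken out, a fit described below, 3 members of the list fell.

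For the 4 ID genes, which moved together, and the other genes of the 8 above with a RefSeq promoter entry (ADM, C6orf141 and TUBG2), the 250 bases before the RefSeq transcription starts (GRCh38.p14, 5′ to 3′ on the gene's strand) are shown with motif matches in capitals. The windows are chr20:31605039-31605288 for ID1 and chr2:8681806-8682055 for ID2, both on the plus strand, chr1:23559502-23559751 on the minus strand for ID3, and chr6:19837120-19837369 and chr11:10304823-10305072 on the plus strand for ID4 and ADM. Those of C6orf141 and TUBG2, also on the plus strand, are chr6:49550418-49550667 and chr17:42659034-42659283.
ID1: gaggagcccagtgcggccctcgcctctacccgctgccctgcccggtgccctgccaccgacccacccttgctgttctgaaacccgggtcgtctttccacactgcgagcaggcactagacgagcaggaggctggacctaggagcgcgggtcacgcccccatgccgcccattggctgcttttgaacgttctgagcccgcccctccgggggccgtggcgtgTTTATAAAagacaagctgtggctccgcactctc
ID2: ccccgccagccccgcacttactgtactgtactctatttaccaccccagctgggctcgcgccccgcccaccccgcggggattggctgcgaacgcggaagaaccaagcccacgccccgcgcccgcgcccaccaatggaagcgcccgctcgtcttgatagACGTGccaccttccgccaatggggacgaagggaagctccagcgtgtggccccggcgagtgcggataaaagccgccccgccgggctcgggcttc
ID3: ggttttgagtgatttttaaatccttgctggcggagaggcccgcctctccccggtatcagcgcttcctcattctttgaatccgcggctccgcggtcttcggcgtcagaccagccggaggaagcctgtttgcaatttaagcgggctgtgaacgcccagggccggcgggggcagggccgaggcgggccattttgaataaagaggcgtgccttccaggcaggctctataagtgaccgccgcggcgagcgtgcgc
ID4: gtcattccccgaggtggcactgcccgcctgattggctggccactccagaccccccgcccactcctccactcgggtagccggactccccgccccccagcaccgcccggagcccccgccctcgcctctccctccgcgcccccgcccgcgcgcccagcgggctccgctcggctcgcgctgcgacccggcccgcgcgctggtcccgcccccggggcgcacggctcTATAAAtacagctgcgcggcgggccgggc
ADM: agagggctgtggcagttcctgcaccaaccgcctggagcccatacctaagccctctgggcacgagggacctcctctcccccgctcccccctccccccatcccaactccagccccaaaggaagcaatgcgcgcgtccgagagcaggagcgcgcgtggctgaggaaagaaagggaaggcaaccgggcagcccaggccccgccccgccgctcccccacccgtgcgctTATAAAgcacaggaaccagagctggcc
C6orf141: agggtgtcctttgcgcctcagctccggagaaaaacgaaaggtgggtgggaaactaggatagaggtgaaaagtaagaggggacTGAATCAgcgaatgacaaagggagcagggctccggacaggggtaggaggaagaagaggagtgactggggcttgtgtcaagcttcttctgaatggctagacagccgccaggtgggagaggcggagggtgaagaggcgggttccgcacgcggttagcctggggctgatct
TUBG2: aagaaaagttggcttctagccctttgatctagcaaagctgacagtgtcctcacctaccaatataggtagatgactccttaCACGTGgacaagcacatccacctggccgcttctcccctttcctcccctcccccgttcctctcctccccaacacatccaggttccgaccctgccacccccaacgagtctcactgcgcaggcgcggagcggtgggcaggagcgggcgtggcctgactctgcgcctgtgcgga
The first of 5 motifs searched on both strands was TATAAA, the core promoter box. The second was AGGTCA, the core site of nuclear receptors. The third, for AP-1, was TGANTCA. The fourth, a hypoxia factor core, was ACGTG. The fifth, for BMP-activated SMAD factors, was GGCGCC. All were chosen after values and, for TATAAA, after these sequences had been seen. The capitals in ID1, ID4 and ADM are TATAAA, which in ID1 overlaps its own match on the other strand. The capitals in C6orf141 are TGANTCA, those in ID2 and TUBG2 are ACGTG, which in TUBG2 overlaps its match on the other strand, and the ID3 window held 0 of the 5 motifs. Promoters were matched for 9138 of 14524 symbols tested. TATAAA stood in 4.94% of the 9138 windows, 9.74% of the 154 from genes that fell and 2.27% of the 88 from genes that rose. AGGTCA stood in 8.03%, 11.04% and 4.55% of these sets in the same order. The other 3 motifs were no more frequent in genes that fell than in all: TGANTCA stood in 3.96% of all, 1.95% of those that fell and 2.27% of those that rose, ACGTG in 23.8%, 23.4% and 26.1%, and GGCGCC in 26.6%, 25.97% and 23.9%. A match describes the letters in the window and no more.

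Of the keratin genes in 2 lists, 6 fell. Of 22 basal and hemidesmosome genes, KRT14, KRT15 and KRT5 fell (13.6%, against 1.64% of all genes) and 0 rose. The list median was -0.06. Of 11 activation and other keratins, KRT6A, KRT19 and KRT13 fell (27.3%) and 0 rose. Their median was -0.52, and 8 members did not pass. In the shortest and next shortest of 10 bins of protein-coding genes by span, described below, 6.04% and 3.91% fell. With the trend on gene span taken out, 2 members of the basal list and 3 of the other fell. Leaving out single libraries gave 1 to 3 in each list. KRT15 stood at 555, 420 and 543 CPM untreated and 343, 333 and 284 CPM treated (-0.66 ± 0.11, adjusted p = 0.00889). KRT19, a keratin of simple epithelia, went from 137, 145 and 143 CPM to 105.4, 97.03 and 87.995 CPM (-0.55 ± 0.09). In both genes the groups were separate. KRT5, the partner of KRT14 in basal filaments, passed only narrowly (-0.48 ± 0.12, adjusted p = 0.046), and KRT13, a mucosal keratin, had -0.79 ± 0.16 (adjusted p = 0.0239). KRT17 (-0.52 ± 0.17, adjusted p = 0.108) did not pass. Of the basal anchoring genes, COL17A1 had 0.20 ± 0.08 and ITGA6 -0.10 ± 0.15, neither past the test. In the whole basal and hemidesmosome list, keratins included, 9 members lay above 0 and 13 below. TP63, the master regulator of stratified epithelium, had 0.16 ± 0.11, which became -0.0042 with the trend on gene span taken out.

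Few members of the other epidermal lists passed, where 1.64% of all genes fell and 0.913% rose. Of 20 differentiation genes 0 rose, and their median was -0.14. IVL, the envelope protein involucrin, had -0.55 ± 0.21 (adjusted p = 0.141). Of 20 junction genes 1 fell, the tight junction gene CLDN4, from 25.8, 26.5 and 26.2 CPM to 14.9, 17.3 and 16.6 CPM (-0.69 ± 0.12). Of 12 antimicrobial and S100 genes 1 fell, S100A8 (-0.82 ± 0.21, adjusted p = 0.0488), and it passed in 0 of the leave-one-out fits. That list's median was -0.42, with 11 of 12 members below 0, against 7453 of all 14676 genes tested.

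Signalling genes that fell belonged to several pathways. Of 23 AP-1, immediate early and EGFR genes, 3 fell and 0 rose, with a median of -0.28. JUN, a subunit of AP-1, stood at 42.2, 47.6 and 44.4 CPM untreated and 31.6, 29.6 and 27.9 CPM treated (-0.59 ± 0.09, adjusted p = 0.00759). JUNB went from 372, 352 and 320 CPM to 259, 214 and 222 CPM (-0.59 ± 0.11), and PHLDA1 changed by -0.56 ± 0.08 (adjusted p = 0.00447). None of the 3 had overlapping groups, where 15.9% of all genes tested were separated in that direction. Of 21 cytokine and NF-kB targets, 3 fell (14.3%) and 0 rose (median -0.28). They were the chemokine gene CXCL1 (-0.60 ± 0.10), the NF-kB brake TNFAIP3 (-0.32 ± 0.07) and TNFSF12 (-1.17 ± 0.29). TNFSF12 shares every count with the readthrough gene that spans it. Of 21 p53 targets, CDKN1A, PMAIP1 (-0.44 ± 0.08) and TP53INP1 (-0.98 ± 0.24) fell (14.3%), with a median of -0.18. The last 2 encode promoters of cell death. Leaving out single libraries gave 0 to 3, 0 to 3 and 0 to 4 members that fell in these lists, in that order. With the trend on gene span taken out, a fit described below, 3, 1 and 2 members fell.

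Among 19 Wnt genes, DKK1, a secreted Wnt inhibitor (-0.52 ± 0.09), and the receptor gene FZD7 (-0.84 ± 0.19) fell. They were 10.5% of that list, where 1.64% of all genes fell and 0.913% rose. Of 17 YAP and TEAD genes, the matricellular target CYR61 fell (-0.75 ± 0.13) and TEAD1, which encodes the DNA-binding partner of YAP, rose (0.30 ± 0.07). NOTCH1 was the 1 of 15 Notch genes that passed, at 103, 110 and 133 CPM untreated and 168, 142 and 144 CPM treated (0.39 ± 0.10, adjusted p = 0.0479). Its groups were separated by little and it passed in 1 of 6 leave-one-out fits. CDH2, or N-cadherin, rose as the 1 of 12 epithelial to mesenchymal markers that passed (0.33 ± 0.08). Of 24 hypoxia and glycolysis genes, ADM fell and P4HA1, a collagen prolyl hydroxylase, rose (0.32 ± 0.08), with a median of -0.18.

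Metabolic and stress lists held a few genes that fell and 0 that rose. The share that fell was 6.25% in the cholesterol and fatty acid list and 9.52% in the ATF4 list. It was 9.52% among respiratory chain genes and 4.76% among NRF2 genes, against 1.64% of all genes. In the cholesterol and fatty acid list of 32, SREBF1, the regulator of lipid synthesis (-0.38 ± 0.07), and the desaturase gene SCD (-0.53 ± 0.12) fell. In the ATF4 list of 21, DDIT4, an inhibitor of mTORC1 (-0.60 ± 0.10), and the asparagine synthetase gene ASNS (-0.51 ± 0.11) fell. Of 42 nuclear-encoded respiratory chain genes, UQCRQ, NDUFV1, ATP5B and NDUFS8 fell by 0.41, 0.40, 0.45 and 0.30 on the log2 scale. In that list 38 of 42 members lay below 0, against 7453 of all 14676 genes tested, and the median was -0.16. Medians were -0.20 and -0.13 in the shortest and next shortest of 10 bins of protein-coding genes by span, described below. The part of span in this list was not tested. SNORD59A lies inside ATP5B, so their reads cannot be told apart here. Of 21 NRF2 genes 1 fell, FTH1 above. Of 19 chaperones of the endoplasmic reticulum 0 passed, nearest HSP90B1 (-0.27, adjusted p = 0.106).

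Among 30 S phase genes, the sliding clamp gene PCNA (-0.41 ± 0.10), the helicase gene MCM7 (-0.27 ± 0.07) and the thymidylate synthase gene TYMS (-0.29 ± 0.07) fell, each with an adjusted p of 0.046 to 0.0482 and in 0 of the leave-one-out fits. These 3 were 10.0% of the S phase list, against 1.64% of all genes that fell. Of 30 G2/M genes 0 passed, with a median of -0.0099, and the nearest was the mitotic kinesin gene KIF20A (-0.33, adjusted p = 0.052). Of 35 interferon response genes, ISG15, a ubiquitin-like modifier, fell (-0.45 ± 0.11), a share of 2.86%. Of 22 antigen presentation genes, HLA-DMB, a class II peptide loader, tested under 1 gene ID, fell (-0.86 ± 0.18), a share of 4.55%.

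**Figure D4:**
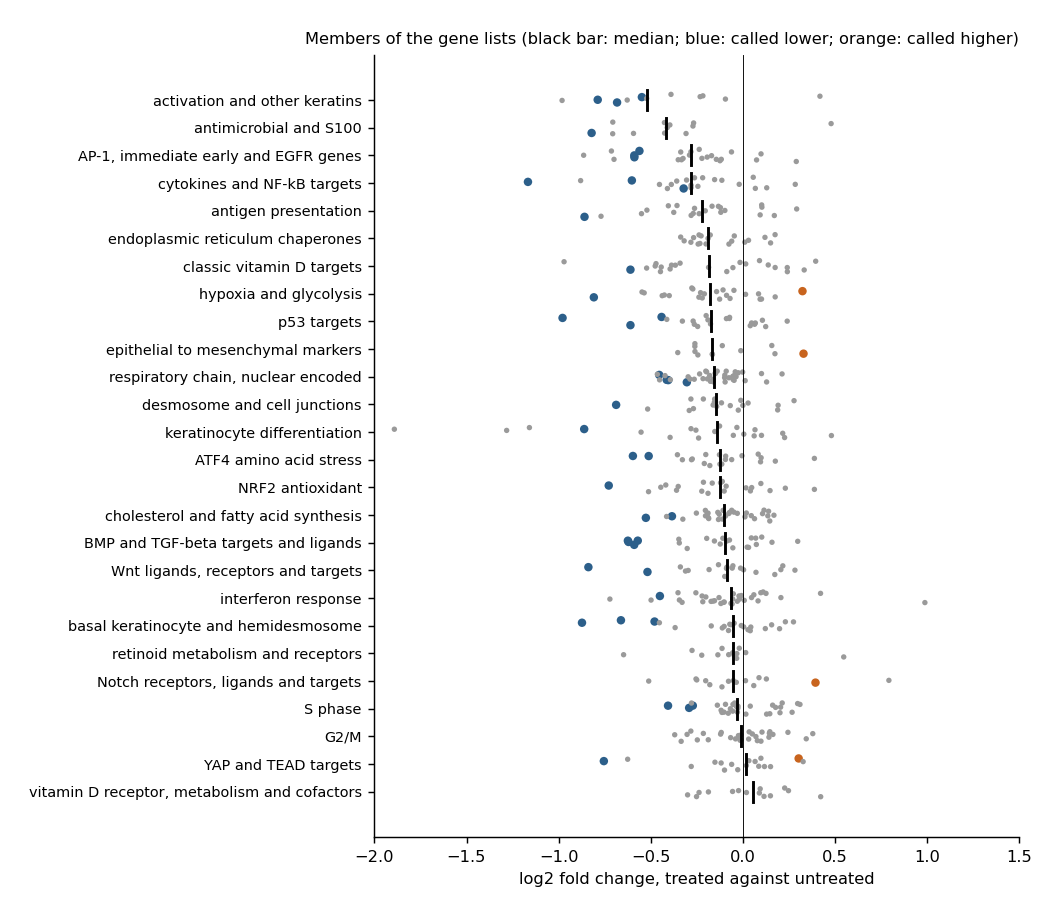
Log2 fold change of treated against untreated knockout cells for each tested member of 26 gene lists, with the list median as a black bar. Blue points were called lower, orange higher and grey neither, and the lists run from the lowest median at the top (-0.52, activation and other keratins) to the highest at the bottom (0.05, the receptor's machinery).

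The genes that rose were of other kinds. MCPH1, or microcephalin, a chromosome condensation and DNA damage protein, went from 130, 149 and 134 CPM to 183, 196 and 184 CPM (0.45 ± 0.08, adjusted p = 0.0126). KAL1, now ANOS1, a matrix protein gene, went from 11.02, 12.01 and 11.05 CPM to 15.89, 15.93 and 14.97 CPM (0.46 ± 0.08, adjusted p = 0.0126). WDR74, a ribosome assembly factor, changed by 0.52 ± 0.09 (adjusted p = 0.0129), and the spliceosomal RNA gene RNU2-2 overlaps it. WDR74 had 1194, 1271 and 1415 CPM untreated and 1749, 1937 and 1887 CPM treated. RNU2-2 alone had 1063, 1128 and 1286 CPM untreated and 1617, 1814 and 1750 CPM treated. Reads of RNU2-2 could thus make up most of the WDR74 count, and the rise cannot be assigned to WDR74 itself. For MCPH1 and KAL1 the treated libraries lay wholly above the untreated ones, and each passed in 4 of the 6 leave-one-out fits. HELZ, an RNA helicase gene, rose by 0.45 ± 0.08 and TENM3, a teneurin adhesion gene, by 0.37 ± 0.07. ITCH, a ubiquitin ligase gene, rose by 0.33 ± 0.08. Of 166 small nucleolar and Cajal body RNA genes, which guide RNA modification, 8 rose (4.82%, against 0.913% of all genes) and 2 fell (1.20%, against 1.64%), with a median of 0.16. SNORD11 stood at 0.451, 0.450 and 0.480 CPM untreated and 1.05, 1.48 and 1.58 CPM treated (1.55 ± 0.34), a small number of reads. Leaving out single libraries gave 0 to 9 members that rose, and 2 rose with the trend on gene span taken out, a fit described below.

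Of 78 histone genes, 6 fell (7.69%, against 1.64% of all genes) and 1 rose (1.28%, against 0.913%). H1FX, a linker histone gene, went from 66.8, 60.3 and 59.4 CPM to 39.2, 37.0 and 38.4 CPM (-0.70 ± 0.12), with all treated values below all untreated ones, and HIST1H4L rose (0.39 ± 0.07). Of 80 cytosolic ribosomal protein genes, RPL4 rose (0.38 ± 0.08) and RPL6 fell (-0.41 ± 0.10), with many pseudogene copies of both. Each is a share of 1.25%, near the 0.913% and 1.64% of all genes. Of 447 zinc finger genes named ZNF, ZNF407, ZNF704 and ZNF143 rose and 0 fell, a share of 0.671% that is near the background of 0.913%.

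Gene span, the distance from a gene's first to its last annotated base, differed between the genes that rose and fell. Among protein-coding genes the median was 158 kb for the 113 that rose, 9.11 kb for the 202 that fell and 33.7 kb for all 11754 tested. Spans over 100 kb were found in 75 of the 113 (66.4%), 0 of the 202 and 19.5% of all. Over 10 equal bins of the genes by span, the median log2 fold change ran from -0.20 in the shortest, where 1 gene rose and 71 fell, to 0.16 in the longest, where 55 rose and 0 fell. Set against the mean of the 6 libraries, the longest minus the shortest bin was -0.18, -0.19 and -0.16 in untreated replicates 1 to 3 and 0.16, 0.26 and 0.09 (log2) in treated ones, so every library followed its group.

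With each library's trend on span taken out, a fit added after the data had been seen, 52 genes (0.368%) rose and 127 (0.898%) fell of 14135 tested, among them 38 of the 134 and 112 of the 240. The 8 genes that passed in every leave-one-out fit still fell, with KRT14 at -0.74, ADM at -0.67, FTH1 at -0.61 and ID1 at -0.50. WDR74 (0.63), MCPH1 (0.30) and RP11-402C9.1 (0.37), which lies inside TENM3, still rose. TENM3 (0.14, adjusted p = 0.314), ITCH (0.21, adjusted p = 0.127), NOTCH1 (0.37, adjusted p = 0.0806) and KAL1 (0.32, adjusted p = 0.0806) did not pass there, nor did KRT5 (-0.35, adjusted p = 0.151) or PCNA (-0.31, adjusted p = 0.106).

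**Figure D5:**
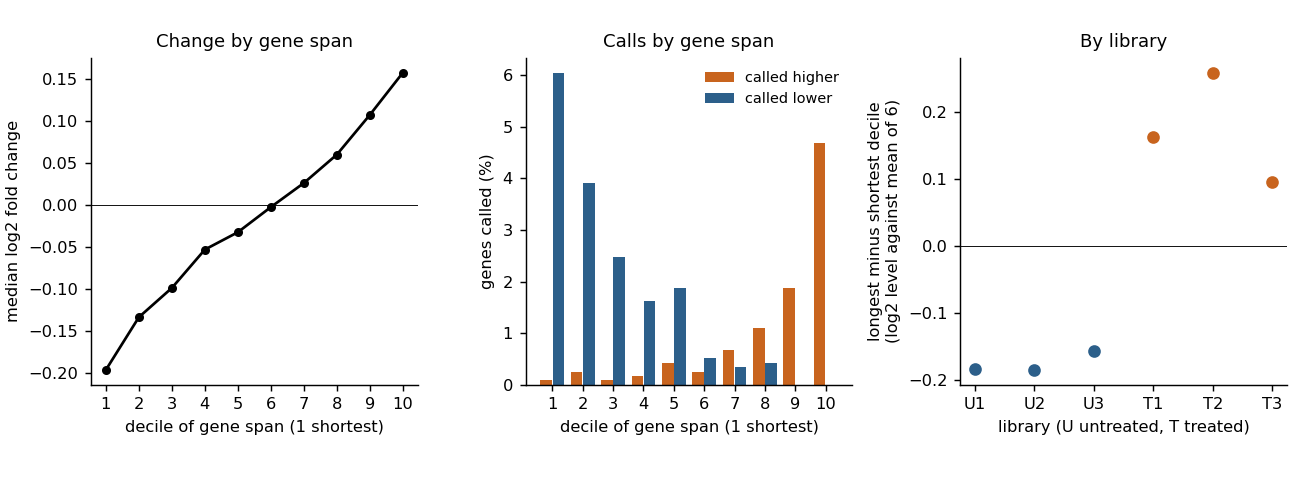
Left, median log2 fold change per bin of protein-coding genes in 10 equal bins ordered by span; middle, percent of each bin called higher (orange) or lower (blue); right, the longest minus the shortest bin in each library on the log2 scale, relative to the mean of the 6. The medians climb from -0.20 to 0.16, and the 3 treated libraries lie above 0 and the 3 untreated below it.

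The authors' deposited table for genes lower with treatment in knockout cells holds 173 terms, 133 of them with the authors' adjusted p below 0.05. It counts 306 listed genes for biological process terms, 308 for molecular function and 314 for cellular component. Of 252 different genes named in its terms, 250 were matched to genes tested here; all 250 had a log2 fold change below 0 and 124 fell by the test used here. The table was made from these libraries and is not independent evidence of the direction. In the authors' deposited table, response to metal ion holds 22 genes (adjusted p = 0.000211) and epithelial cell differentiation 32 genes (adjusted p = 0.000211). Of those 32, 19 fell here, KRT14, KRT15, ID1 and ID3 among them.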

How the data were processed

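Total RNA of HaCaT cells was sequenced in 12 libraries, 3 in each of 4 groups taken from the labels. The authors deposited whole-number counts per gene and, in a separate table, CPM, which per the file headers belong to named libraries and equal count over library total times 1e6. BWA 0.5.9 and the build mm9 are named per the submitters' processing notes. As mm9 is a mouse build and the gene IDs are human, the build, annotation and counter behind these counts were not given in the sources used here. Tables of gene ontology terms deposited by the authors hold p-values, adjusted p-values and gene counts per term; those for the other direction held 0 terms.

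Of 16271 gene IDs, 14676 passed edgeR's expression filter and 1595 were set aside. edgeR 4.0.16 (R 4.3.3) was fitted to all 12 libraries with TMM scaling (factors 0.95 to 1.057) and robust quasi-likelihood tests of treated against untreated VDR KO cells, with Benjamini-Hochberg adjustment over all genes and a threshold of 0.05. On simulated data for this comparison with 14676 genes, 70% of genes changed 1.5-fold and 99% of genes changed 2-fold were recovered, with 9 false calls. The simulation gave every gene the same spread (common dispersion 0.0117), drew genes independently and held no trend on span. Only genes above a minimum level were changed. These figures check the code and do not give the recovery or false calls of the real data. Alternatives used DESeq2 1.42.0 and limma 3.58.1 (log2 of CPM plus 1). Positions and types come from GENCODE v29 (GRCh38) by gene ID. No source used here states strand-aware counting, so overlapping and antisense genes are uncertain, and 808 genes shared their counts with another gene in every library.

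Genes named are the 3 markers given for these cells with VDR, CYP24A1 and CYP27B1, genes passing in every leave-one-out fit, the genes with the smallest adjusted p or highest level in each direction, up to 4 called members of each list, or its nearest member where 0 passed, and the 12 keratinocyte markers; others were named after their values were seen. Members and lists were chosen with earlier results of these data known. Some genes that this rule selects are not reported here.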

Additional observations from a re-analysis of the deposited data

How the results depend on the processing

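Counts of genes that rose and fell were 134 and 240. Scaling by DESeq2 size factors gave 144 and 237, no filter 122 and 276, and a stricter filter 146 and 248, while library size alone gave 98 and 392 and limma on log2 CPM 96 and 369. DESeq2 gave 411 and 500, and the 6 knockout libraries alone 833 and 942. Leaving out 1 library gave 0 to 66 that rose and 8 to 212 that fell, removal of the span trend 52 and 127, an adjusted p below 0.01 in edgeR 0 and 36 (with 3128 genes at an unadjusted p below 0.05), and a 2-fold minimum 7 and 4. A replicate block gave 11 and 58, and 474 and 573 with the knockout libraries alone. Same-numbered libraries correlated at 0.021, -0.0035 and -0.054 in their deviations from the group means, and the other pairs at -0.069 to 0.075. No shared effect of the numbers was seen. With 3 libraries per group this cannot tell whether same-numbered wells were handled together. The cause of these differences was not tested, and a stricter threshold calls fewer genes by construction. CYP27B1 turned from -0.056 to 0.071 with the span trend removed, and to 0.030 without treated replicate 1 and 0.037 without treated replicate 2, within a leave-one-out range of -0.25 to 0.037, and none of these passed. Of the keratinocyte markers, TP63 turned from 0.16 to -0.0042 with the span trend removed, and TGM1 from -0.052 to 0.028 there and up to 0.18 with 1 library left out, with no pass of the test. At these depths genes of a few counts, such as SNORD11, carry wide errors.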

Other observations

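The groups here were put together after the values had been seen, so their counts are descriptions. Of 80 ribosome biogenesis factors, 10 rose (12.5%, against 0.913% of all genes) and 0 fell, with a median of 0.10 against -0.0045. They were WDR74, SRFBP1, NOL10, ESF1, NVL, PDCD11, GPATCH4, RPF2, DDX10 and UTP14A. The rise of WDR74 cannot be assigned to that gene, since reads of RNU2-2 could make up most of its count. NVL, GPATCH4 and UTP14A passed in 0 of the leave-one-out fits. SRFBP1 went from 87.6, 91.4 and 100 CPM to 124, 143 and 117 CPM (0.46 ± 0.09, adjusted p = 0.0173 in edgeR), and NOL10 from 140, 153 and 147 CPM to 197, 200 and 198 CPM (0.44 ± 0.09, adjusted p = 0.0212). In both, every treated library lay above every untreated one. Leaving out single libraries gave 0 to 6 of the 80.

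All 3 metallothionein genes tested, of 11 listed, fell, where 1.64% of all genes and 6.04% of the shortest bin by span did. They encode zinc- and copper-binding proteins. MT1E went from 43.2, 40.8 and 43.8 CPM to 29.5, 30.0 and 28.4 CPM (-0.54 ± 0.11), MT1X changed by -0.78 ± 0.15 and MT2A by -0.41 ± 0.10. MT1X shared its counts with another gene ID in every library. MT2A passed only narrowly (adjusted p = 0.0471 in edgeR) and in 0 of the leave-one-out fits. Leaving out single libraries gave 0 to 2 of the 3, and 2 fell with the span trend removed. Of 11 SR splicing factor genes, SRSF2 (-0.50 ± 0.08) and SRSF5 (-0.47 ± 0.08) fell (18.2%, against 1.64% of all genes) and 0 rose. All 11 lay below 0, as did 7453 of all 14676 genes tested. Among processed pseudogenes 15 of 316 fell and 1 rose, where 1.64% and 0.913% of all genes did, and RPS2P46 (-0.80) was among those that fell.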
